A study of Mus musculus with 5 samples.

Results

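The 10 genes of Polycomb repressive complex 1.1 (PRC1.1) and related variant PRC1 complexes described here were followed through single-cell RNA-seq of mouse synovial sarcoma (SyS): Kdm2b, Pcgf1, Bcor, Bcorl1, Rybp, Yaf2, Usp7, Rnf2, Ring1 and Pcgf3. They were chosen by name as genes whose products write, or help to write, the mono-ubiquitin mark on a C-terminal lysine of histone H2A (H2AK119ub), and all 10 were found among the 32286 features of the count tables. The 5 tumours arose in the limbs of mice in which TATCre protein had switched on SS18::SSX2 from the Rosa26 locus (the hSS2 allele), and each was harvested at the point of morbidity, dissociated and profiled as 1 library. All 5 therefore carried the same fusion and were told apart by histology alone, with the labels BP for biphasic (2 tumours), MP for monophasic (1), MP+BP (1) and PD+MP for poorly differentiated with monophasic (1). The labels give no age and no cells without the fusion allele, and the labels of both BP tumours share a leading number whose meaning is not stated, so that counting them as 2 samples may overstate their independence. Nothing in the labels says more about how far the 5 samples are separate, and the p-values measure only the spread between these samples, which may in part be technical.

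PRC1 complexes share a catalytic core of a RING protein, Rnf2 (RING1B) or Ring1 (RING1A), paired with 1 of a family of PCGF proteins, and the PCGF partner decides which complex forms. PRC1.1 is the Pcgf1 complex, which joins Bcor or Bcorl1, Usp7 and Kdm2b, a protein that binds DNA at unmethylated CpG dinucleotides and brings the complex to CpG islands. Rybp and its paralogue Yaf2 are alternative subunits that all variant PRC1 complexes use and that canonical PRC1, built on Cbx readers of H3K27me3, lacks. The SSX part of the fusion protein is known to bind nucleosomes that carry H2AK119ub, which is why the genes that place this mark are of interest in this tumour.

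Because KDM2B recognises unmethylated CpG, the sequences before the starts of Kdm2b itself and of Bcor, the member with the largest log2 fold change in each of the 3 comparisons tested, are shown with their CG dinucleotides in capitals. They are the 250 bases before an annotated RefSeq start, read 5′ to 3′ on the gene's own strand, which is the minus strand for both genes (GRCm38.p6).
Kdm2b, upstream start, chr5:122989100-122989349: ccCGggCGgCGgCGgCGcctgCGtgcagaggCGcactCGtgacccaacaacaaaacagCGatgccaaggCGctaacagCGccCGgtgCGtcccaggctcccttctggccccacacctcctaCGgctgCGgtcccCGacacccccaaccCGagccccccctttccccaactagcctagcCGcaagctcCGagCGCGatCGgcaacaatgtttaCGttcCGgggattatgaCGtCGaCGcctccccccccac
Kdm2b, internal start, chr5:122900351-122900600: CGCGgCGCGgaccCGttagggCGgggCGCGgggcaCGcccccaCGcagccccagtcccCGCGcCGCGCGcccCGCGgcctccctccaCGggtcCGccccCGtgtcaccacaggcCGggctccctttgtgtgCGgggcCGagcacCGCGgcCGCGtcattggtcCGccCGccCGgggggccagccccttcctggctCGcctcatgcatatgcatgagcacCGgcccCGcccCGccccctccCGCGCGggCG
Bcor, chrX:12160347-12160596: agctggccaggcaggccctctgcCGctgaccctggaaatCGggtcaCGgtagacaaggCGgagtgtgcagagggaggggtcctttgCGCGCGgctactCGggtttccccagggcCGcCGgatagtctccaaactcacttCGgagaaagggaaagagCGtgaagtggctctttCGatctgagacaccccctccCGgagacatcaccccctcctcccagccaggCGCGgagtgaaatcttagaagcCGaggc
The Kdm2b windows held 27 CG at the upstream start and 38 at the internal start, from which shorter transcripts begin. Among 32817 windows of this length in the same table, whose median count was 6 CG, 8.57% held at least 27 and 1.88% at least 38. The table holds 4 Kdm2b windows, and those not shown are at chr5:122900368-122900617, beside the internal start, with 36 CG (reached by 2.58% of windows), and at chr5:122988508-122988757, with 12 CG (reached by 33.5%). The Bcor window held 17 CG, a count reached by 23.5% of all windows. Counts of CG in the letters say nothing of methylation in these cells, and the 3′ counts used here cannot tell transcripts of the Kdm2b starts apart. RefSeq windows were found for 7 members, and none for Pcgf1, Rybp and Yaf2.

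After filtering, 39559 of 51670 called cells were kept, 6328 to 9486 per tumour, with a median of 6339 to 8527 unique molecular identifiers (UMIs) per cell. Clusters were named from marker genes, never from the genes reported here, which were kept out of the clustering. SyS-like cells made up 2520 to 6920 cells per tumour (39.8% to 80.3%), against 161 to 536 stromal (pericyte-like and fibroblast-like), 80 to 650 endothelial-like and 498 to 974 macrophage-like cells. The EGFP entry of the tables, which was not used for naming, lay at 30.7 to 42.5 CPM (counts scaled to a total of 1000000 per class and tumour) in the SyS-like cells and at 0 to 8.75 CPM in the stromal, endothelial-like and macrophage-like cells. A further 27.6% and 31.9% of the kept cells of the BP tumours, and 1.08% to 4.82% of the others, carried SyS markers but stayed unnamed, and adding them moved no count of called members. In the PD+MP tumour 123 of 161 stromal cells were fibroblast-like, against 1 to 16 of the stromal cells of the others. Xist, transcribed from the inactive X chromosome, reached only 0.366 CPM in the PD+MP tumour's SyS-like cells, where each of the other tumours had at least 1560 CPM. Reln, a marker of the SyS-like cells at 180.2 to 530.2 CPM there, was also counted at 3.07 to 32.4 CPM in the 3 other classes compared, and the part of such RNA in the values below was not tested.

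Each tumour's counts were summed over the cells of a class, so that a value below is that class's CPM in 1 tumour, and classes were compared within tumours by edgeR's quasi-likelihood test with Benjamini-Hochberg adjustment over all genes. SyS-like cells held more Bcor than every other class compared, more Rybp, and more Kdm2b than stromal and endothelial-like but not macrophage-like cells. Stromal cells were mostly fibroblast-like in PD+MP and mostly pericyte-like in the other tumours. Against them 5 of 10 members were higher (Bcor, Rybp, Bcorl1, Ring1 and Kdm2b) and 0 lower at an adjusted p under 0.05. Of the other genes tested 15.9% were higher and 9.3% lower. With 1 tumour left out 2 to 6 members were called, beside 3576 to 6053 genes over all. Bcor and Rybp kept the call in each such fit, Bcorl1 in 2 of 5, Kdm2b in 1 and Ring1 in 0. Against endothelial-like cells 5 were higher (Bcor, Ring1, Rybp, Kdm2b and Pcgf3) and 2 lower (Yaf2 and Usp7), beside 30.6% and 19.1% of the other genes. Against macrophage-like cells 5 were higher (Bcor, Bcorl1, Rybp, Yaf2 and Pcgf3) and 1 lower (Kdm2b), beside 37.3% and 23.8%. The 3 comparisons share the SyS-like sums, so they are not independent of each other. The members' median log2 fold changes were 0.50, 0.61 and 0.59, where the medians of the other genes were 0.20, 0.21 and 0.27.

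**Figure D1:**
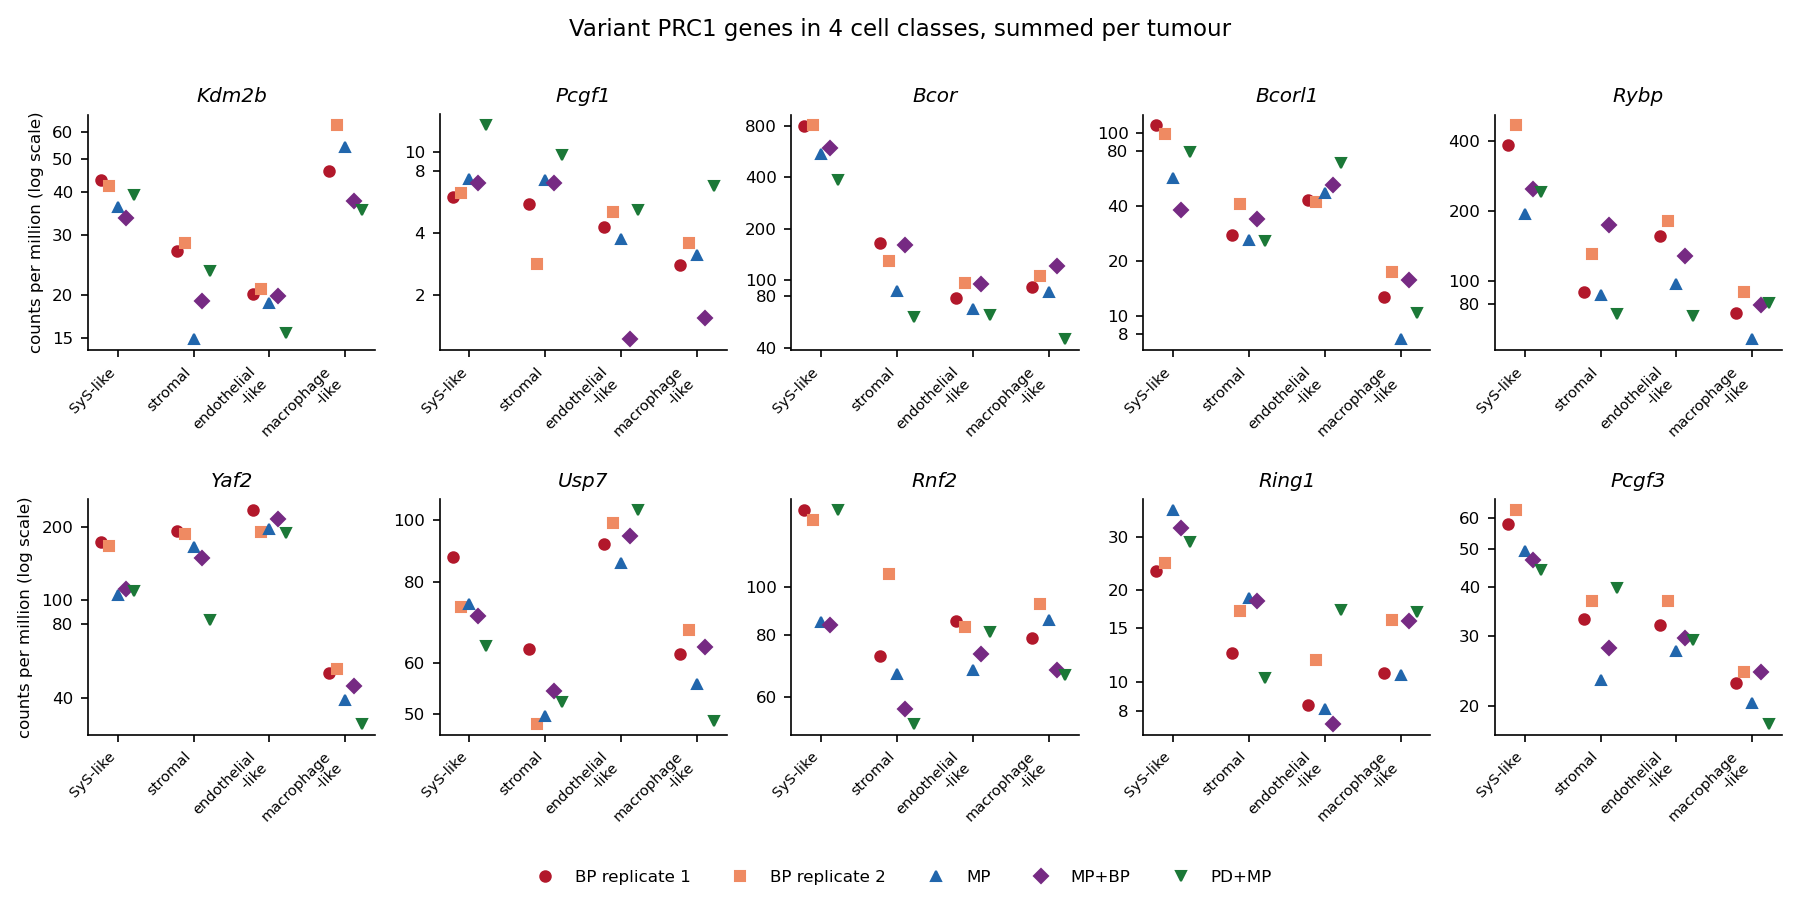
Level of each of the 10 genes (y axis, CPM on a log scale that differs between panels) in the summed SyS-like, stromal, endothelial-like and macrophage-like cells (x axis) of each tumour, 1 point per tumour with its label by colour and shape. Bcor in SyS-like cells lies between 388 and 809.9 CPM, above all 15 points of the other classes, while Yaf2 is lowest in macrophage-like cells and Kdm2b is lowest in stromal and endothelial-like cells.

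Bcor, the corepressor that ties PCGF1 to KDM2B, lay at 805 and 809.9 CPM in SyS-like cells of the BP tumours, 548 CPM in MP, 594 CPM in MP+BP and 388 CPM in PD+MP. In stromal cells of the same tumours it lay at 165, 129, 85.6, 161 and 60.4 CPM. All 5 SyS-like values exceeded every stromal value, by 1.88 to 2.68 on the log2 scale within a tumour. The fitted log2 fold change was 2.16 (SE 0.18, adjusted p = 7.7e-05, edgeR), a 4.46-fold difference. Against endothelial-like cells, at 62.1 to 96.1 CPM, it was 2.71 (SE 0.15, adjusted p = 7.2e-07), and against macrophage-like cells, at 44.7 to 120.6 CPM, 2.21 (SE 0.17, adjusted p = 1.3e-06). Bcor passed the test under each of the 19 alternatives against stromal cells, with log2 fold changes of 2.08 to 2.44 (adjusted p of at most 8.5e-04). The gene spans chrX:12036740-12160355 on the minus strand, where no other counted gene overlaps it (GENCODE M21, GRCm38).

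Bcorl1, the paralogue that can take the place of Bcor in PRC1.1, is also X-linked (chrX:48341358-48408049, plus strand). Its levels in SyS-like cells were 111 and 99.0 CPM in the BP tumours, 57.2 CPM in MP, 38.3 CPM in MP+BP and 79.5 CPM in PD+MP, and in stromal cells 27.7, 41.2, 26.1, 34.1 and 25.8 CPM. Each tumour was higher in SyS-like cells, but MP+BP only by 0.17 on the log2 scale, so that the classes overlapped. The fitted difference was 0.96 (SE 0.26, adjusted p = 0.024), and it lost the call without BP replicate 1 (adjusted p = 0.080), without BP replicate 2 (0.077) and without MP (0.051). In macrophage-like cells Bcorl1 lay at 7.42 to 17.4 CPM, below all SyS-like values, with a log2 fold change of 1.95 (SE 0.26, adjusted p = 7.9e-05). Endothelial-like cells, at 42.0 to 69.0 CPM, overlapped SyS-like cells, and the difference of 0.29 (SE 0.27, adjusted p = 0.39) did not pass.

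Kdm2b, a histone demethylase with the CXXC zinc finger that reads CpG, differed by 1.29 times between the highest and lowest tumour in SyS-like cells: 43.4 and 41.7 CPM in BP, 36.2 CPM in MP, 33.7 CPM in MP+BP and 39.4 CPM in PD+MP. Stromal cells held 27.0, 28.4, 14.9, 19.2 and 23.6 CPM, and endothelial-like cells 15.5 to 20.9 CPM. SyS-like values lay above both without overlap, with log2 fold changes of 0.54 (SE 0.16, adjusted p = 0.038) against stromal and 0.74 (SE 0.17, adjusted p = 0.0046) against endothelial-like cells. The stromal difference was carried by 20 to 41 stromal UMIs per tumour. It did not pass with DESeq2 size factors (adjusted p = 0.052), once SyS-like counts had been thinned to the depth of the stromal ones (0.10) or without any 1 of BP replicate 1 (0.086), BP replicate 2 (0.074), MP (0.14) and MP+BP (0.095). Kdm2b spans chr5:122870665-122989823 on the minus strand and overlaps the counted genes Rnf34 and A930024E05Rik on the plus strand.

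In macrophage-like cells Kdm2b reached 46.3 and 62.9 CPM in the BP tumours, 54.2 CPM in MP, 37.8 CPM in MP+BP and 35.6 CPM in PD+MP, so that in CPM it was higher than in SyS-like cells in 4 of 5 tumours, by at most 0.59 on the log2 scale. The scaling decides how large this is. With TMM scaling, which left the median of the other genes at 0.27, the log2 fold change was -0.89 (SE 0.15, adjusted p = 5.5e-04). With total counts alone the log2 fold change was -0.26 (adjusted p = 0.15), and the median of the other genes stood 0.63 higher. Relative to that median the difference was -1.16 under both, a value that a change of scaling leaves nearly unchanged by construction.

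**Figure D2:**
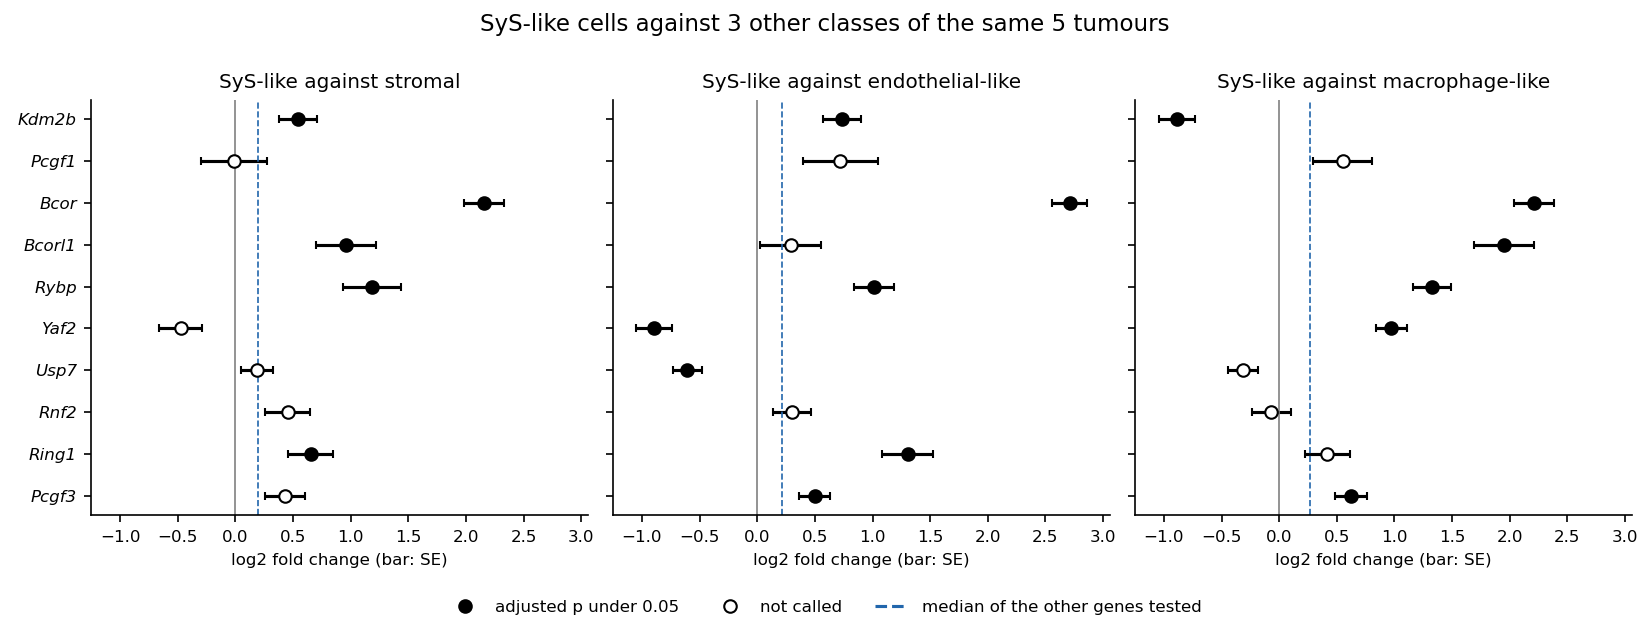
Log2 fold change of SyS-like cells against stromal, endothelial-like and macrophage-like cells (x axis, TMM scaling, bars are the SE of the edgeR fit over 5 tumours) for the 10 genes (y axis). Filled points passed an adjusted p under 0.05, and the dashed line is the median of the other genes tested. Bcor lies farthest to the right in each panel at 2.16, 2.71 and 2.21, and Kdm2b is at -0.89 against macrophage-like cells, which is -0.26 and not called with total counts alone.

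The smaller immune classes were not part of any test, and were looked at after the values above were seen. Kdm2b in T and NK-like cells was 653 and 517 CPM in the BP tumours, 429.7 CPM in MP, 752 CPM in MP+BP and 433 CPM in PD+MP, from 51 to 134 UMIs in 33 to 74 cells. The lowest of these exceeded the highest SyS-like value of 43.4 CPM and the highest macrophage-like value of 62.9 CPM. Dendritic-like cells followed with 324 CPM in BP replicate 1, 141 CPM in MP, 208 CPM in MP+BP and 135 CPM in PD+MP. Neutrophil-like cells of 3 tumours lay at 62.9 to 74.8 CPM from 8 to 20 UMIs each, and the Poisson intervals of these overlapped the macrophage-like values. The order of Kdm2b by mean CPM was thus T and NK-like, dendritic-like, neutrophil-like, macrophage-like, SyS-like, stromal, mast-like and endothelial-like cells. Macrophage-like values overlapped those of SyS-like cells, and stromal, mast-like and endothelial-like values overlapped each other. No other member had its highest mean in T and NK-like cells. Bcor, for instance, lay there at 81.2 to 273.8 CPM, below every SyS-like value. In neutrophil-like cells of 3 tumours Bcor lay at 252 to 583 CPM, overlapping the SyS-like range, and these sums also held SyS-like markers, with Reln at 14.97 to 537.5 CPM, Sox2 at 3.145 to 45.55 CPM and EGFP at 9.436 to 29.93 CPM, whose part in the Bcor values was not tested.

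**Figure D3:**
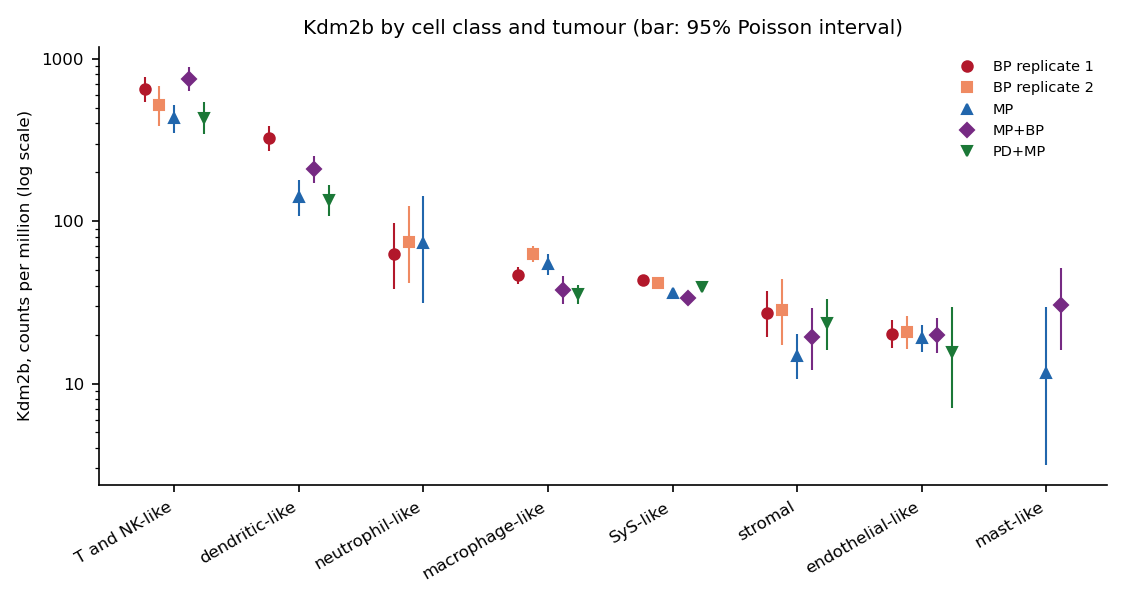
Kdm2b level (y axis, CPM, log scale) in 8 cell classes (x axis), 1 point per tumour with at least 20 cells of the class, and bars for the exact 95% Poisson interval of the summed counts, which covers counting error only. T and NK-like cells lie between 429.7 and 752 CPM and SyS-like cells between 33.7 and 43.4.

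Pcgf1, the PCGF protein that defines PRC1.1, had few counts in every class. SyS-like cells held 5.98 and 6.24 CPM in the BP tumours, 7.34 CPM in MP, 7.03 CPM in MP+BP and 13.4 CPM in PD+MP, while the stromal sums rested on 2 to 20 UMIs per tumour. No difference from stromal cells was detectable at this depth (log2 fold change -0.01, SE 0.29, adjusted p = 0.98, with a positive sign in 9 of 17 alternatives, total counts alone among them), although in CPM SyS-like cells were the higher in each of the 5 tumours, by 0.01 to 1.14 on the log2 scale. Differences from endothelial-like cells (0.72, SE 0.32, adjusted p = 0.088) and macrophage-like cells (0.55, SE 0.26, adjusted p = 0.081) did not pass, although SyS-like cells were again the higher in each tumour. Both were called with total counts alone, at 0.98 (adjusted p = 0.027) and 1.18 (adjusted p = 0.0019). The medians of the other genes were then 0.48 and 0.90. Pcgf3, which builds a separate variant complex with Auts2-type partners, stood in SyS-like cells at 57.8 and 62.8 CPM for the BP tumours, 49.5 CPM in MP, 46.9 CPM in MP+BP and 44.3 CPM in PD+MP. It exceeded every stromal value (23.2 to 39.8 CPM) without passing the test (0.43, SE 0.17, adjusted p = 0.094). The call was gained with total counts alone (0.71, adjusted p = 0.014), without PD+MP (0.58, adjusted p = 0.019) and with pericyte-like cells alone (0.51, adjusted p = 0.042). It was called higher than in endothelial-like cells (0.50, SE 0.13, adjusted p = 0.012) and macrophage-like cells (0.62, SE 0.14, adjusted p = 0.0030), the former not without MP (adjusted p = 0.054).

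Rybp and Yaf2, the paralogues that stimulate ubiquitination in variant PRC1, were distributed differently over the classes. Rybp lay at 384 and 466 CPM in SyS-like cells of the BP tumours, 194 CPM in MP, 248 CPM in MP+BP and 240.4 CPM in PD+MP. Stromal cells held 90.1, 130.6, 87.0, 174 and 72.2 CPM, which did not overlap. The log2 fold change was 1.19 (SE 0.25, adjusted p = 0.0084), with 1.01 (SE 0.17, adjusted p = 9.2e-04) against endothelial-like and 1.33 (SE 0.17, adjusted p = 5.0e-05) against macrophage-like cells. Rybp and Bcor passed the test in all 3 comparisons under each alternative tried, the only members of which this held.

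Yaf2 had its highest mean in endothelial-like cells, at 234 and 189.9 CPM in the BP tumours, 195 CPM in MP, 214 CPM in MP+BP and 188 CPM in PD+MP. SyS-like cells held 173, 167, 105, 112 and 109.6 CPM, below all of these (log2 fold change -0.89, SE 0.16, adjusted p = 0.0011). Macrophage-like cells, at 31.2 to 52.6 CPM, were lower than SyS-like cells by 0.97 (SE 0.14, adjusted p = 1.1e-04). Stromal cells held 191, 186, 165, 149 and 83.2 CPM, and the low value is that of PD+MP, whose stromal cells were mostly fibroblast-like. Over all 5 tumours the difference from stromal cells did not pass (-0.47, SE 0.19, adjusted p = 0.089), and without PD+MP (-0.62, adjusted p = 0.018) or with pericyte-like cells alone (-0.59, adjusted p = 0.014) Yaf2 was called lower in SyS-like cells, as it also was by DESeq2 (-0.51, adjusted p = 0.032).

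Rnf2, the ubiquitin ligase that carries most PRC1 activity, stood in SyS-like cells at 142.5 and 136 CPM for the BP tumours, 85.2 CPM for MP, 84.0 CPM in MP+BP and 143 CPM in PD+MP. Its range over the other 3 classes was 53.0 to 106 CPM, and it passed no test (log2 fold changes 0.45 with SE 0.20, 0.30 with SE 0.16 and -0.07 with SE 0.17, adjusted p = 0.12, 0.15 and 0.74). With total counts alone it was called higher in all 3, by 0.73 against stromal (adjusted p = 0.018), 0.55 against endothelial-like (adjusted p = 0.0072) and 0.56 against macrophage-like cells (adjusted p = 0.013), where the medians of the other genes were 0.48, 0.48 and 0.90. It was also called against endothelial-like cells with a minimum of 10 counts in every sum (0.48, adjusted p = 0.017). Ring1, its paralogue, stood there at 23.2 and 24.6 CPM for the BP tumours, 36.7 CPM in MP, 32.0 CPM in MP+BP and 28.7 CPM in PD+MP, and at 12.5, 17.0, 18.9, 18.4 and 10.3 CPM in stromal cells. Ring1 was higher against stromal (0.65, SE 0.19, adjusted p = 0.035) and endothelial-like cells (1.30, SE 0.22, adjusted p = 9.0e-04). The stromal call was lost without any 1 of the 5 tumours (adjusted p = 0.050 to 0.092) and with no tumour block (0.057). In macrophage-like cells Ring1 lay at 10.6 to 17.0 CPM, below every SyS-like value, but the difference did not pass (0.42, SE 0.20, adjusted p = 0.087). It was called with total counts alone (1.05, adjusted p = 7.1e-04), where the median of the other genes was 0.90. A minimum of 10 counts in every sum also gave a call (0.66, adjusted p = 0.013).

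Usp7, the deubiquitinase held in PRC1.1, lay in SyS-like cells at 87.5 and 73.2 CPM in BP, 74.1 CPM in MP, 71.0 CPM in MP+BP and 63.9 CPM in PD+MP. Endothelial-like cells held 91.6, 98.9, 85.8, 94.3 and 103.5 CPM, more than the SyS-like cells of the same tumour in each case, although the ranges overlapped (log2 fold change -0.60, SE 0.13, adjusted p = 0.0032). Against stromal cells, at 48.3 to 63.1 CPM and below every SyS-like value, the difference of 0.19 (SE 0.14, adjusted p = 0.35) did not pass. It was called with total counts alone (0.465, adjusted p = 0.029), where the median of the other genes was 0.48. Against macrophage-like cells the sign depended on the scaling: -0.32 (SE 0.13, adjusted p = 0.054) with TMM and 0.32 (adjusted p = 0.041) with total counts alone. Relative to the median of the other genes it was -0.59 under both, which again holds by construction. With TMM, Usp7 was called lower with more doublets removed (-0.335, adjusted p = 0.045), with no tumour block (-0.322, 0.045) and with thinned sums (-0.338, 0.046).

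Across the tumour labels no member passed a test. The SyS-like sums of BP and MP+BP (3 tumours) were compared with those of MP and PD+MP (2 tumours), and 0 of 10 members were called, with 0 at an unadjusted p under 0.05 and 0 by DESeq2. Among the other genes 0% were called and 8.84% had an unadjusted p under 0.05. Over all genes DESeq2 called 567 of 20802, so small a share that 0 of 10 members says little about them. Without MP, PD+MP alone would stand for its group, so calls of that fit are not read here. Bcor, Rybp and Yaf2 were higher in all 3 tumours with BP than in both without, a pattern seen in 17% of the other genes, and Pcgf1 was lower in all 3, seen in 10.5%. Their log2 differences were 0.58 (SE 0.27), 0.68 (SE 0.34), 0.41 (SE 0.26) and -0.78 (SE 0.34), with adjusted p of 0.51 to 0.59. With 3 tumours against 2 and 0% of the other genes called by edgeR, the absence of calls does not show that the members are alike across labels.

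The BP tumours were close to each other in most members, at 807.5 ± 3.47 CPM for Bcor, 6.11 ± 0.183 CPM for Pcgf1 and 139 ± 4.47 CPM for Rnf2 (mean ± SD, n = 2). Rnf2 was as high in PD+MP as in both, and lower in MP and MP+BP. PD+MP stood apart in Pcgf1, at 13.4 CPM where the other tumours lay at 5.98 to 7.34, and its Bcor value was the lowest in each of the 4 classes, although in endothelial-like cells its Poisson interval (43.5 to 86.0 CPM) held that of MP, the next lowest. Its Pcgf1 was also the highest in stromal and macrophage-like cells, while in endothelial-like cells its 5.18 CPM came from 3 UMIs (exact Poisson interval 1.07 to 15.1 CPM) and was not separated from 5.07 CPM in BP replicate 2. Its stromal Pcgf1 was 9.58 CPM (interval 5.10 to 16.4) against 2.84 to 7.25 CPM, which by counting error alone is not separated either, and its macrophage-like Pcgf1 was 6.76 CPM against 1.54 to 3.56 CPM. In the same tumour Bcor was 60.4 CPM in stromal cells, 62.1 CPM in endothelial-like cells and 44.7 CPM in macrophage-like cells, where the next lowest tumour held 85.6, 67.7 and 84.5 CPM. The stromal sum of PD+MP was mostly fibroblast-like, 123 of 161 cells, where the other tumours held 1 to 16 such cells. The part of this make-up in the stromal values, and of SyS-like RNA in the 3 other classes, was not tested. As PD+MP is also the 1 tumour without Xist and the 1 tumour of its label, label, sex and animal cannot be told apart.

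Within tumours the members also varied between SyS-like clusters, which had been formed without them. Among clusters of at least 100 cells, Bcor spanned 536 to 917 CPM in BP replicate 1, 669 to 953 CPM in BP replicate 2, 442 to 636 CPM in MP, 430.3 to 731 CPM in MP+BP and 215 to 453 CPM in PD+MP. The lowest cluster of each tumour thus still exceeded that tumour's stromal, endothelial-like and macrophage-like values. In the BP tumours the cluster led by Hpse2 and Tafa5 held the most Rybp, Rnf2 and Bcorl1, with Rybp at 457 and 528 CPM and Rnf2 at 166 and 152 CPM. The same tumours' Sst-led cluster held 229 and 279.8 CPM of Rybp, 87.7 and 77.3 CPM of Rnf2, and 37.2 and 34.0 CPM of Bcorl1 against 143 and 114 CPM. Its median was 7993 and 6573 UMIs per cell, where the Hpse2-led cluster had 18275 and 13062, and the part of depth was not tested. Within MP and MP+BP, Rnf2 moved little, by 1.25 and 1.28 times from the lowest to the highest cluster. These are single sums per tumour, leave out the unnamed cells with SyS markers, and were not tested.

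Kdm2b was highest in clusters with few UMIs and much Malat1, a nuclear RNA, in 3 tumours. In MP the cluster with a median of 2302 UMIs per cell held 58.6 CPM of Kdm2b and 36920 CPM of Malat1, against 28.9 and 6823 CPM in the cluster led by Pcp4. In MP+BP the same clusters held 50.2 and 23.1 CPM of Kdm2b, and in PD+MP the low-UMI cluster led by Igf2 held 49.8 CPM. In both BP tumours the highest Kdm2b value was that of a cluster led by Meioc and Cenpf, at 55.8 and 44.3 CPM. Its median was 17802 and 13511 UMIs per cell, and Mki67, a proliferation marker, lay there at 280.3 and 301.5 CPM. Next in BP replicate 1 came the low-UMI cluster, with a median of 2823 UMIs and 25690 CPM of Malat1. It held 52.9 CPM of Kdm2b, from only 31 UMIs. BP replicate 2 could not show the pattern, as each of its clusters of at least 100 cells had a median of at least 6573 UMIs. The part of RNA content in these differences was not tested, and the count of called members was the same with the low-UMI clusters left out.

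**Figure D4:**
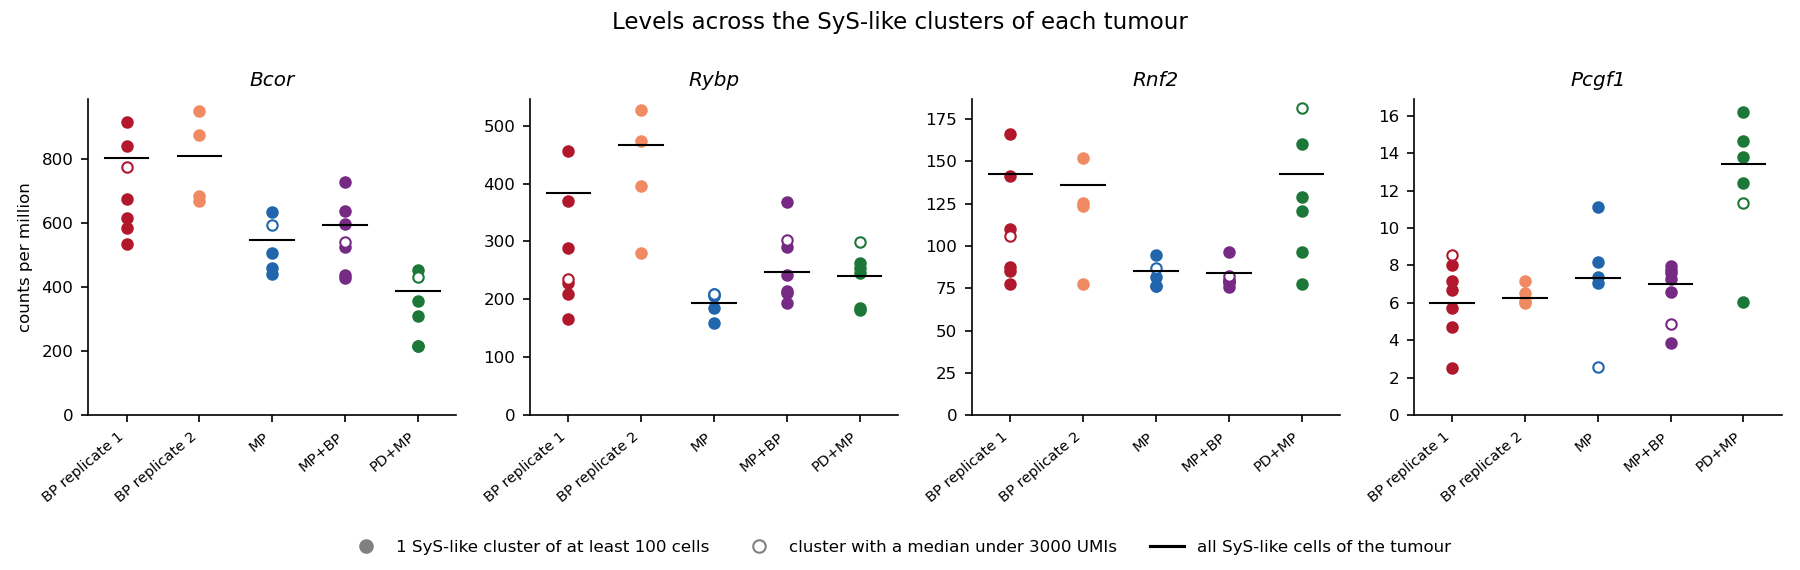
Bcor, Rybp, Rnf2 and Pcgf1 (y axes from 0, CPM) in each SyS-like cluster of at least 100 cells, by tumour (x axis). Open points are clusters with a median under 3000 UMIs per cell, and the bar is the sum over all SyS-like cells of the tumour. The lowest Bcor cluster lies at 214.8 CPM, in PD+MP, and the Rnf2 clusters of MP and MP+BP lie within a narrower range than those of the other tumours.

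Of the wider pathway, 41 other genes were followed in fixed lists, all of them tested. Against stromal cells 3 of 18 other variant PRC1 genes were higher and 0 lower (median log2 fold change 0.23), 3 higher and 2 lower of 11 canonical PRC1 genes (0.15), 2 higher and 0 lower of 6 genes for removal of H2AK119ub (0.37), and 3 higher and 0 lower of 5 other readers of the mark (0.51), beside the background of 15.9% higher and 9.3% lower. The higher readers, named here after their values were seen, were Dnmt3a, Dnajc2 and Rsf1. Against macrophage-like cells only Rsf1 of these was higher, and Dnmt3a (-1.25, adjusted p = 1.3e-04) and Dnajc2 (-0.38, adjusted p = 0.039) were lower. Against macrophage-like cells 9 of the 18 variant PRC1 genes were higher and 3 lower, beside 37.3% and 23.8% of the other genes, and against endothelial-like cells 6 and 2, beside 30.6% and 19.1%.

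The PCGF paralogues, which compete for the RING proteins, went opposite ways. Bmi1 (Pcgf4), a defining subunit of canonical PRC1, was at 1.59 to 3.36 CPM in SyS-like cells and at 13.1 to 25.6 CPM in stromal cells, a log2 fold change of -3.08 (adjusted p = 7.6e-05). It was also lower against endothelial-like (-4.19, adjusted p = 3.4e-07) and macrophage-like cells (-2.51, adjusted p = 4.4e-06). Pcgf2, its closest paralogue, was higher in SyS-like cells at 21.4 to 42.0 CPM against 9.94 to 17.7 CPM in stromal cells (0.80, adjusted p = 0.014), and Pcgf6 of the E2f6 and Mga complex was higher by 0.83 (adjusted p = 0.022). Pcgf5 did not pass against stromal (0.53, adjusted p = 0.15) or endothelial-like cells (-0.52, adjusted p = 0.088), and was lower than in macrophage-like cells (-0.79, adjusted p = 0.012). Kdm2a, the CXXC paralogue of Kdm2b, was higher than in stromal cells (0.60, adjusted p = 0.017) and did not pass against endothelial-like (0.43, adjusted p = 0.053) or macrophage-like cells (0.04, adjusted p = 0.84). The calls of Pcgf6 and Kdm2a against stromal cells were lost without either BP tumour, and that of Pcgf2 without MP (adjusted p = 0.050).

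Auts2, a partner in the Pcgf3 and Pcgf5 complexes that has been tied to activation of transcription, lay at 1798 to 3016 CPM in SyS-like and 348 to 718 CPM in stromal cells (1.94, adjusted p = 1.2e-04). Asxl1 and Asxl3, cofactors of the H2AK119 deubiquitinase Bap1, were higher by 1.17 (adjusted p = 4.8e-04) and 3.09 (adjusted p = 5.1e-04). The stromal sums held only 18 UMIs of Asxl3 over the 5 tumours. Among Polyhomeotic and Cbx subunits of canonical PRC1, Phc1 (1.14, adjusted p = 0.0098) and Cbx6 (0.94, adjusted p = 0.0051) were higher and Phc2 (-0.85, adjusted p = 0.015) lower, the last not without either BP tumour or MP (adjusted p = 0.053 to 0.064) or with total counts alone (0.052).

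**Figure D5:**
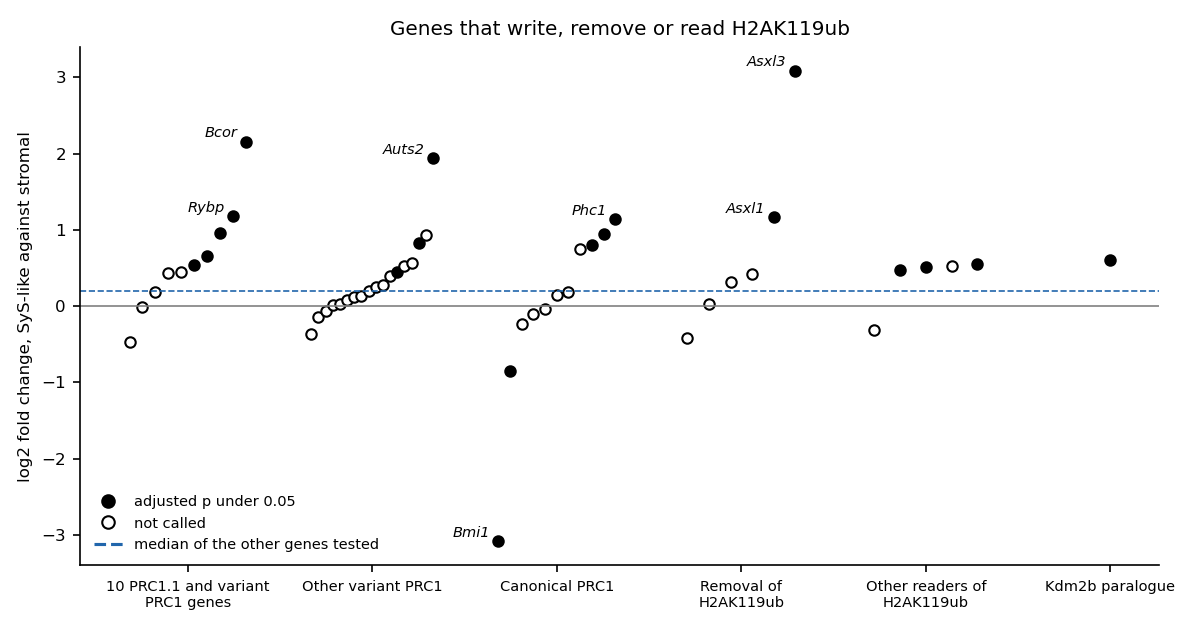
Log2 fold change of SyS-like against stromal cells (y axis) for the 10 genes and 5 lists of other genes of the pathway (x axis), 1 point per gene, filled where the adjusted p was under 0.05. The dashed line is the median of the other genes tested, at 0.20. Asxl3 at 3.09 and Bmi1 at -3.08 are the ends of the range.

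Over the 20 sums of the 4 compared classes in the 5 tumours, the genes with levels most like Kdm2b were Dmxl1 (Pearson r = 0.939), Fnip1 (0.923) and Ccdc93 (0.922), out of 7899 searched. Those most like Pcgf1 were Fam136a (0.867), Sec13 (0.860) and Snrnp27 (0.857) out of 7900. The sums of a tumour share a library and those of a class share cell type and depth, so these are descriptions of likeness alone.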

How the data were processed

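Single-cell 3′ RNA-seq (Chromium v3.1) of 5 tumours was analysed from the deposited count matrices, which hold UMI counts per gene and cell barcode as the authors made them with Cell Ranger (7.2.0 per the file headers) on mm10, with no normalization. Cell Ranger counts reads on the gene's strand, and the annotation release is not given in the sources used here. Library totals were 89996321 to 118649103 UMIs, and 0.83% to 0.99% of each library's barcodes also occurred in another.

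Cells needed at least 750 detected genes and at most 25% mitochondrial counts (8488 and 666 removed). Scrublet's automatic threshold marked 4 to 304 cells per tumour, so the 2957 cells of highest score, at an expected 0.8% per 1000 cells of a library, were removed instead. Counts were clustered (scanpy 1.11.5, Pearson residuals of 3000 genes, 30 components, Leiden resolution 1) without the 10 genes, the pathway lists or sex-linked genes. A name for any of the 29 clusters needed at least 3 markers of a fixed list. Clusters stayed unnamed where classes tied, where leading genes belonged to another class, or where UMI counts were low with no marker among the leading genes. The members and lists were chosen with earlier results of these data known. Counts were summed per tumour and class (at least 20 cells) and tested with edgeR 4.0.16 (filterByExpr, TMM, quasi-likelihood, tumour as a block). The scripts were tested on simulated data. The alternatives also used DESeq2 1.42.0. CPM scales each sum to a total of 1000000 counts, and Poisson intervals (95%) cover counting error only.

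Named besides the 10 genes were the paralogues Kdm2a, Pcgf2, Bmi1, Pcgf5 and Pcgf6, the listed genes with the largest called changes against stromal cells (at most 10), and the 3 genes most like Kdm2b and Pcgf1. Fold changes of the other genes leave out clustering features and markers. Of the list, Skp1 was counted under its older symbol Skp1a. Alternatives were other scalings, DESeq2, other count, cell and doublet filters, Leiden resolution 2, no block, thinned sums, pericyte-like cells alone and each tumour left out. Adding the unnamed clusters with SyS markers and leaving out low-UMI SyS-like clusters were chosen after seeing the data. Gene positions are from GENCODE M21.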

Additional observations from a re-analysis of the deposited data

Results flagged for a closer look

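Pcgf1 in SyS-like cells of the PD+MP tumour, at 13.4 CPM, lay far from the other 4 tumours, whose highest value was 7.34 CPM and lowest 5.98 CPM. The gap to the nearest tumour was 0.818 of the whole range, above Dixon's 95% critical value for 5 samples. It was the 1 value so marked among 40 groups of 5 tumours (10 genes in 4 classes), and chance marks about 1 in 20 groups. The value moved to 13.3 CPM when the unnamed clusters with SyS markers were added. The tumour is the 1 sample of its label and the 1 without Xist, so these cannot be told apart.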

How the results depend on the processing

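Of 705 values of the 10 genes under alternatives, 637 kept direction and side of the threshold, 17 lost the call, 18 gained it and 33 changed sign. No called value changed sign, and 13 of the 18 called values passed under every alternative tried. Against stromal cells 8 members were called with total counts alone, and 2 to 6 with 1 tumour left out: 2 without BP replicate 1, BP replicate 2 or MP, and 3 without MP+BP. Over all genes 3576 to 6053 were called against stromal cells with 1 tumour left out, in place of 5238 of 17693. The count of members was then 6 to 7 against endothelial-like cells and 6 each time against macrophage-like cells. Over all genes these fits called 8190 to 9955 and 10142 to 11671. With total counts alone the split against macrophage-like cells was 9 higher and 0 lower in place of 5 and 1, and over all genes 10168 higher and 3012 lower in place of 6467 and 4934. For endothelial-like and stromal cells all genes went from 5366 and 4178 to 7342 and 3365, and from 2838 and 2400 to 5026 and 1915. That scaling moved the median of the other genes by 0.28, 0.26 and 0.63. A minimum of 10 counts in every sum left 9, 8 and 9 members tested, and 2949, 4276 and 6461 genes called in place of 5238, 9544 and 11401.

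Changes of sign were these. Pcgf1 against stromal cells (-0.01) became 0.278 with total counts, 0.062 with no count filter, 0.083 at 1500 genes per cell, 0.040 at 10% mitochondrial counts, 0.044 with unnamed clusters added, 0.011 without low-UMI clusters, and -0.142 to 0.101 with 1 tumour left out. Against macrophage-like cells Usp7 became 0.316 and Rnf2 0.563 with total counts, Rnf2 0.176 at 10 counts in every sum, 0.019 with no count filter and -0.212 to 0.055 with 1 tumour left out, and Kdm2a -0.024 with thinned sums and -0.06 to 0.129 with 1 left out. Between labels, Rnf2 (0.00) became -0.027 with DESeq2 and with its size factors, -0.055 with no count filter, -0.018 at 1500 genes, -0.017 at 10% mitochondrial counts, -0.026 with more doublets removed, -0.030 with unnamed clusters added, -0.019 without low-UMI clusters and -0.386 to 0.448 with 1 tumour left out. Kdm2b (-0.01) became 0.066 with total counts, 0.027 at 10 counts in every sum and -0.14 to 0.081 with 1 left out, Bcorl1 (0.20) -0.086 to 0.525 and Usp7 (0.08) -0.003 to 0.129. The cause was not tested.

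Depth limits the stromal and endothelial-like sums most, with 2 to 20 UMIs of Pcgf1 per stromal sum and 9 UMIs of Kdm2b in endothelial-like cells of PD+MP. Tumours of different labels could not be paired, because the labels share fewer than 2 replicate numbers between groups. Classes were compared within tumours, with the tumour as a block.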
